A study of Mus musculus with 6 samples.

Results

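The genes described here build and run the mitotic spindle, the spindle checkpoint and the condensed chromosome. They were 42 symbols chosen by name, from a list of known mitotic genes, and all 42 were among the 13007 genes of the deposited table. The study sequenced poly-A RNA of sorted mouse bone marrow cells (strain C57BL/6) to compare acute erythroid leukemia (AEL) with normal erythroid precursors (NC), with 3 libraries a group. The AEL libraries came from GFP-positive leukemic cells that carried an ERG expression construct and are labelled Trp53-/-; ERG is an ETS family transcription factor and Trp53 encodes the tumor suppressor p53. The NC libraries are labelled WT and came from marrow sorted after staining for the transferrin receptor CD71 and the red cell antigen Ter119. The tissue label of all 6 libraries, NC included, names marrow transformed by SETBP1 and ASXL1 mutations. For NC that contradicts the WT genotype, and the conflict is not resolved here. The sample titles call the replicates biological (bio rep). The labels give no age and no promoter for the ERG construct and do not say whether each replicate was its own animal. P-values therefore reflect only how far these samples vary, and how much of that lies between animals is not known. Since GFP sorted one group and CD71 and Ter119 the other, leukemia and sorting gate cannot be told apart.

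Cells enter mitosis when cyclin A and cyclin B activate the kinase Cdk1. Condensin and topoisomerase II then compact the chromosomes, kinesins and spindle-binding proteins order the microtubules, and the checkpoint holds the anaphase-promoting complex inactive until every kinetochore is attached. Most of these genes are transcribed late in the cell cycle, so in bulk RNA their level follows the share of cells in G2 and M as well as the RNA of each such cell. Erythroid precursors divide rapidly before they lose their nucleus. In these bulk libraries, fewer cycling cells and less mitotic RNA per cell cannot be told apart.

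Library totals ran from 8171676 to 9945330 counts, and 12427 genes were tested. The AEL libraries differed more among themselves than the NC libraries, the biological coefficient of variation being 44.3% in AEL and 9.02% in NC. Erg stood at 790, 557 and 684 CPM (the deposited counts scaled by edgeR to library size with TMM factors) in AEL replicates 1 to 3 and at 4.39, 7.56 and 8.53 CPM in NC, and Trp53 at 976 to 1172 CPM in AEL and 162 to 177 CPM in NC, so the level of Trp53 does not check the Trp53-/- label. Of the 9 erythroid precursor markers tested 6 were called lower in AEL; their summed level was 2895 to 4459 CPM in AEL and 9718 to 11575 CPM in NC, with Gata1 at 276 to 377 CPM in AEL. Markers of other marrow cells were also higher in NC. The 17 neutrophil genes summed to 25.1 to 1594 CPM in AEL and 8972 to 10584 CPM in NC, and 14 of them were called lower. The 14 monocyte and macrophage genes summed to 11.6 to 67.5 CPM in AEL and 3450 to 4084 CPM in NC, with Spic at 0 in every AEL library. The 11 B lineage genes tested summed to 1.80 to 2.93 CPM in AEL and 242.9 to 296 CPM in NC, and the 3 T and NK cell genes tested to 0.225 to 0.824 CPM in AEL and 45.3 to 51.4 CPM in NC. Of 6 megakaryocyte genes 3 fell and 2 rose (summed 114 to 356 CPM in AEL and 123 to 146 CPM in NC). Itga2b alone stood at 244, 33.3 and 52.0 CPM in AEL replicates 1 to 3. Over all genes tested 29.0% were called lower and 23.9% higher. The part of these cells in the differences below was not tested.

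Mitotic genes were lower in the leukemic cells across all 7 functions. Of the 42 members 31 fell and 0 rose (edgeR quasi-likelihood test, Benjamini-Hochberg adjusted p under 0.05 over all genes tested), against a background of 29.0% of all genes tested called lower and 23.9% called higher. The log2 fold change of AEL over NC was below 0 for 42 of 42 members, against 52.0% of all genes, and its median was -0.81, against -0.05 over all genes tested. All 3 AEL libraries lay below all 3 NC libraries for 37 members, against 36.1% of genes, and above them for 0 members, against 29.9%. The summed level of the members was 9335, 7537 and 6742 CPM in AEL replicates 1 to 3 and 13767, 12808 and 14164 CPM in NC replicates 1 to 3. Of the 42 members 13 were called lower by 2-fold or more, against 21.7% of all genes tested. These shares of all genes are also the background for the count of each function below. Differences between the functions were not tested. Genes called higher made up 45.2% of all calls, 55.2% when scaled by library totals alone and 55.5% by quantiles, and 25 and 31 members were then called lower, with 0 higher.

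**Figure D1:**
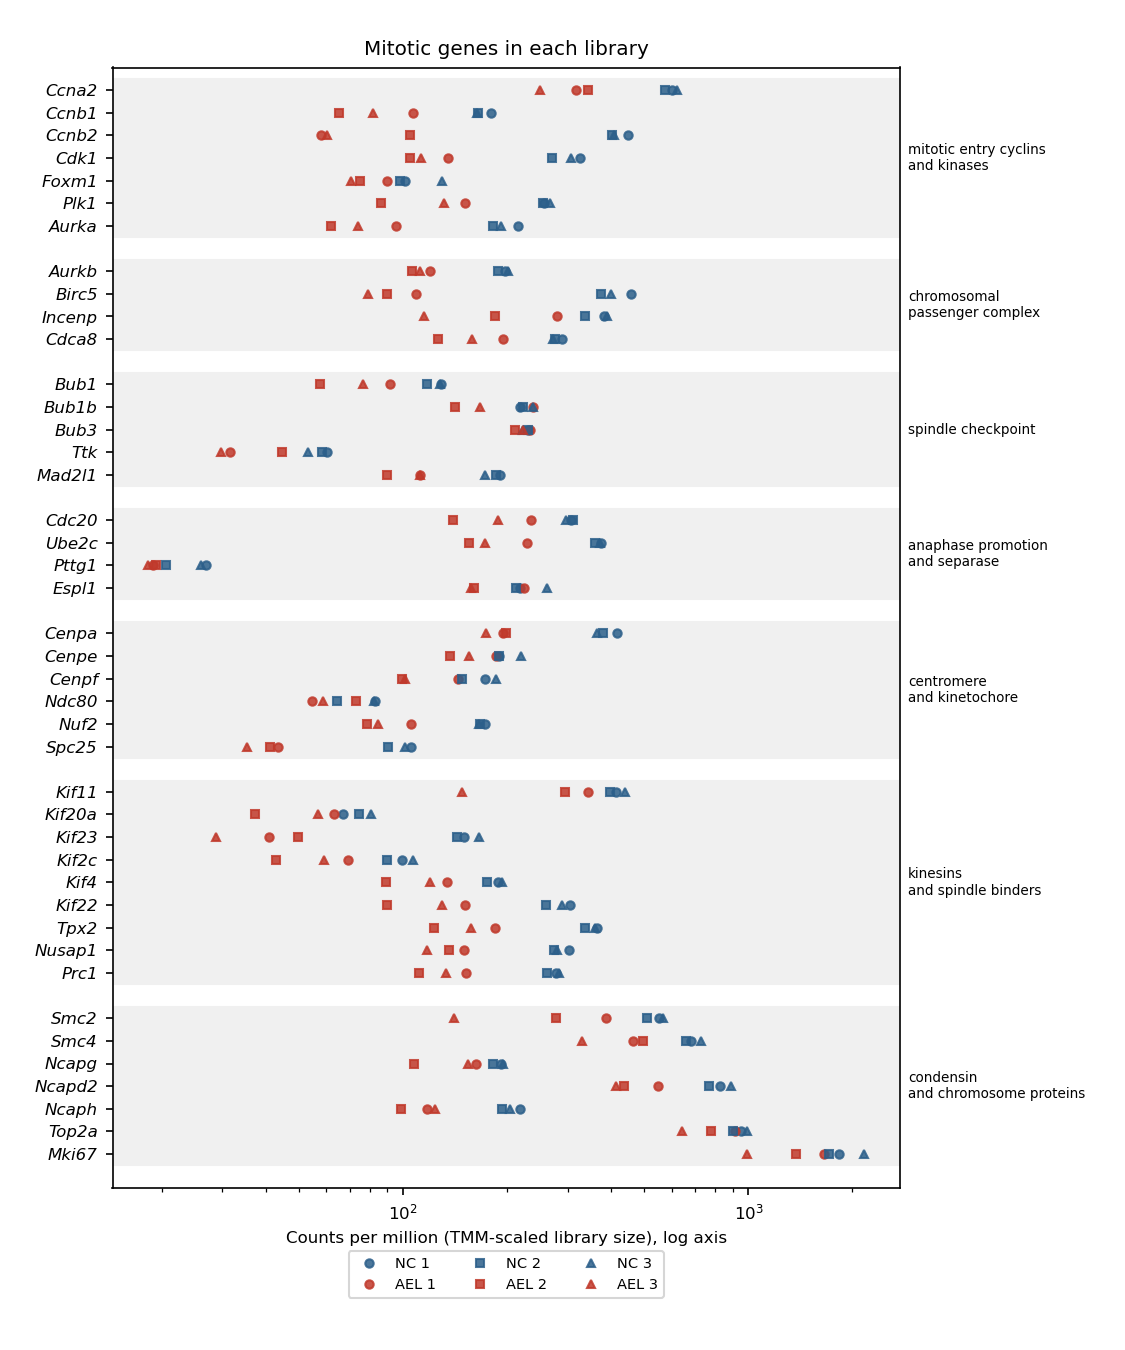
Level of each mitotic gene in each library, in CPM on a log axis, grouped by function; blue symbols are NC, red symbols AEL, and the symbol shape is the replicate number. The red and blue points do not mix for 37 of the 42 genes, and the red points are spread more widely than the blue ones.

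The group of mitotic entry cyclins and kinases, which also holds the transcription factor Foxm1, had 7 of 7 called lower, with a median log2 fold change of -1.08. Ccnb2, which encodes cyclin B2 (chromosome 9, 70407689 to 70421554, build GRCm38, minus strand), was counted at 57.8, 105 and 60.4 CPM in AEL replicates 1 to 3 and at 449, 402 and 407 CPM in NC. Every AEL library was thus far below every NC library, and the fall of 5.64-fold (log2 fold change -2.49, SE 0.25, adjusted p = 0.000545) was the largest among the members in this fit. With each library's chromosome median taken out, as described below, Birc5 (-2.16) was lower than Ccnb2 (-2.08). Ccnb1, encoding the related cyclin B1, stood at 107, 65.5 and 82.1 CPM in AEL and 179, 165 and 163 CPM in NC. Its fall was smaller, at 1.99-fold (SE 0.19 on the log2 scale). Cdk1, the kinase both cyclins activate, stood at 135, 105 and 112 CPM in AEL and 326, 270.1 and 306 CPM in NC, a fall of 2.56-fold (adjusted p = 0.000603). Ccna2, cyclin A2, fell by 0.99 on the log2 scale (SE 0.14), Plk1, the polo kinase of centrosome and spindle maturation, fell by 1.08 (SE 0.21), and Aurka, the centrosomal Aurora kinase, fell by 1.35 (SE 0.18). Foxm1, a transcription factor of G2 and M genes, had the smallest fall of the group, with 90.0, 75.1 and 70.6 CPM in AEL while NC had 101, 97.9 and 130.0 CPM. Its call (log2 fold change -0.48, SE 0.16, adjusted p = 0.0416) ended under 8 of the 16 other settings, among them library totals alone (adjusted p = 0.136).

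Promoter windows are shown for 7 members, chosen after their values were seen: 4 with falls over 2-fold (Ccnb2, Kif23, Cdk1, Birc5), Ube2c with a fall of 1.98-fold, and the 2 with the smallest differences (Top2a, Bub3). The window runs from 170 bases before to 30 bases after the RefSeq transcript start of GRCm38.p6, 5′ to 3′ on the gene's strand. Capitals mark 2 motifs on either strand. TTTGAA (or its reverse complement TTCAAA) is a core sequence of the cell cycle genes homology region (CHR). Through the CHR the MuvB complexes act on G2 and M genes. CCAAT (or ATTGG) is the box bound by NF-Y. A match is a description of the letters and not a binding site. Only these letters were searched, so a window without TTTGAA is not shown to lack a CHR.
Ccnb2, chr9:70421525-70421724, minus strand: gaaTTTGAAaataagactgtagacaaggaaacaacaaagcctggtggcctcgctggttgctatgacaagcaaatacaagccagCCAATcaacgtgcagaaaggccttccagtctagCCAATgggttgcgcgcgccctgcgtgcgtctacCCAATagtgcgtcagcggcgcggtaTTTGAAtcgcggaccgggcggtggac
Kif23, chr9:61946770-61946969, minus strand: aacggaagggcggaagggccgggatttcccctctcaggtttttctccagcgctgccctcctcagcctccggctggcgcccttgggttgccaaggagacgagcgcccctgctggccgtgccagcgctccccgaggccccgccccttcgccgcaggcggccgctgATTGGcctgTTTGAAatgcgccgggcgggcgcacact
Cdk1, chr10:69352883-69353082, minus strand: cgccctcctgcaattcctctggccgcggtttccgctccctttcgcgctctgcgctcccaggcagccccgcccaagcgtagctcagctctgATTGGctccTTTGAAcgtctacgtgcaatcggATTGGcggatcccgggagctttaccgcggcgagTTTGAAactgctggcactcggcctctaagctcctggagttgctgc
Ube2c, chr2:164769759-164769958, plus strand: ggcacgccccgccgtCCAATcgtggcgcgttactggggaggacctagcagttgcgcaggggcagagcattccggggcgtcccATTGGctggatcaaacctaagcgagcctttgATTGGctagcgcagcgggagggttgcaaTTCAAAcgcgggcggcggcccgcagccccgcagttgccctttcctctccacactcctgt
Birc5, chr11:117849067-117849266, plus strand: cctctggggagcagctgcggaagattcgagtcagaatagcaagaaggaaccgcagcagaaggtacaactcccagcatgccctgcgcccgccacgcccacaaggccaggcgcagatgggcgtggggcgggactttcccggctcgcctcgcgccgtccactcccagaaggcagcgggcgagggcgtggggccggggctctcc
Top2a, chr11:99024160-99024359, minus strand: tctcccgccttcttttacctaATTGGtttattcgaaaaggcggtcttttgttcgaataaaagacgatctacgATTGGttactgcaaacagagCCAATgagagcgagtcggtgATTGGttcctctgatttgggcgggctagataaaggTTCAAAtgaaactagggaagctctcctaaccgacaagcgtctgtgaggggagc
Bub3, chr7:131560200-131560399, plus strand: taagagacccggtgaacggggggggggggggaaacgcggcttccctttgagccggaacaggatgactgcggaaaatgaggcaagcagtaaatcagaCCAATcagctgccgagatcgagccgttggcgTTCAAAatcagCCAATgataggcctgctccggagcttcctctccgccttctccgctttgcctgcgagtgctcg

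In the longer RefSeq window, from 250 bases before to 50 after the start, 26 of the 35 members with an entry (74.3%) held TTTGAA, against 14.7% of the 9341 tested genes with a window and 20.2% of all 27025 genes with one. CCAAT was held by 27 of 35 members (77.1%) against 43.2% of the tested genes, and both motifs by 24 members (68.6%) against 6.08%. In 1 member the letters of the 2 motifs overlapped. The end of the window was found in a GENCODE transcript of the same gene for 29 of the 35 members. Members held these motifs whether or not they were called lower. Those with TTTGAA had 18 of 26 called lower and a median log2 fold change of -0.80, and those without it had 7 of 9 called lower and a median of -0.86. Among the other genes called lower in AEL, members left out, 14.9% held TTTGAA, close to the share of all tested genes. In the printed windows, chosen after the values were seen, Ccnb2, Kif23, Cdk1 and Ube2c, all called lower, showed both motifs. Bub3 and Top2a, which were not called, also showed both, and Birc5, with one of the largest falls, showed neither. Every member had a negative log2 fold change, so these counts do not tell whether the motifs bear on the falls, which was not tested.

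The chromosomal passenger complex corrects faulty attachments at the centromere and later drives cytokinesis, and its 4 subunits all fell. Birc5, which encodes the subunit survivin (chromosome 11, 117849237 to 117855743), stood at 109, 90.1 and 79.3 CPM in AEL and 458, 375 and 401 CPM in NC. The groups were far apart, and the fall was 4.43-fold (log2 fold change -2.15, SE 0.16, adjusted p = 0.000216). The kinase subunit Aurkb fell less, from 188 to 201 CPM in NC to 106 to 120 CPM in AEL (1.74-fold, adjusted p = 0.00118). Cdca8, the borealin subunit, fell 1.74-fold too. Incenp, the scaffold of the complex, stood at 279, 184 and 115 CPM in AEL and 382, 336 and 389 CPM in NC. AEL replicate 3 was lowest there, and the call (log2 fold change -0.94, SE 0.30, adjusted p = 0.0363) ended without AEL replicate 2 or any single NC replicate and with library totals alone.

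Of the 5 spindle checkpoint genes 3 fell, and 1 without NC replicate 1 or without NC replicate 3. Mad2l1, whose product binds and inhibits Cdc20, stood at 112, 89.8 and 112 CPM in AEL and 191, 186 and 173 CPM in NC, a fall of 1.76-fold (adjusted p = 0.00235). Bub1, a kinetochore kinase, fell by 0.72 on the log2 scale (SE 0.18), which did not pass without NC replicate 1 (adjusted p = 0.0545) or NC replicate 3 (adjusted p = 0.0527). Ttk, the kinase MPS1 that starts checkpoint signaling, stood at 31.6, 44.6 and 29.7 CPM in AEL and 60.4, 58.3 and 53.1 CPM in NC; its call (adjusted p = 0.0197) ended under 7 of the 16 other settings, among them each single NC replicate left out. Bub1b, the checkpoint protein BubR1, stood at 238, 141 and 167 CPM in AEL and 219, 222 and 238 CPM in NC, so AEL replicate 1 lay within the NC range, and it did not pass (adjusted p = 0.215). Without AEL replicate 1 it passed (-0.45, adjusted p = 0.0262). Bub3, a WD-repeat protein that binds Bub1 and BubR1, was the member nearest to no difference, with 233, 211 and 223 CPM in AEL and 230.4, 229.5 and 223 CPM in NC. The log2 fold change of -0.03 (SE 0.10, adjusted p = 0.783) turned to 0.15 with library totals alone.

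Among the 4 genes that carry cells into anaphase, 2 that act with the anaphase-promoting complex fell, and securin and separase did not pass. Ube2c, the ubiquitin-conjugating enzyme of that complex, stood at 229, 155 and 173 CPM in AEL and 373, 359 and 372 CPM in NC, a fall of 1.98-fold (adjusted p = 0.00273). Cdc20, its coactivator, stood at 235, 139.5 and 188 CPM in AEL and 306, 310 and 296 CPM in NC. The groups did not overlap, but the call (log2 fold change -0.70, adjusted p = 0.0197) ended without any single NC replicate (adjusted p = 0.0563 to 0.0639) and with library totals alone (adjusted p = 0.0504). Pttg1, which encodes securin, the inhibitor of separase, was counted at 18.3 to 19.3 CPM in AEL and 20.6 to 26.8 CPM in NC (log2 fold change -0.38, SE 0.19, adjusted p = 0.133). Espl1, which encodes separase, the protease that opens cohesin, stood at 224, 161 and 157 CPM in AEL and 219, 213 and 262 CPM in NC (adjusted p = 0.126), with AEL replicate 1 inside the NC range.

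Of the 6 centromere and kinetochore genes 4 fell. Cenpa, the histone H3 variant that marks centromeres, stood at 195, 199 and 173 CPM in AEL and 416, 379 and 363 CPM in NC, a fall of 2.05-fold (adjusted p = 0.000707) with little spread in either group. The members include Ndc80, Nuf2 and Spc25 of the NDC80 complex, which couples kinetochores to microtubules. Spc25 fell most, from 105, 90.7 and 101 CPM in NC to 43.5, 41.1 and 35.2 CPM in AEL (2.48-fold, adjusted p = 0.000609). Nuf2 fell by 0.91 on the log2 scale (SE 0.14). Ndc80 itself stood at 54.4, 73.1 and 58.6 CPM in AEL and 83.0, 64.3 and 82.4 CPM in NC, so the groups overlapped and it did not pass (log2 fold change -0.30, SE 0.17, adjusted p = 0.173). Cenpf, a large kinetochore protein, fell by 0.55 (SE 0.18), a call that ended under 6 of the 16 other settings, and Cenpe, a kinetochore kinesin, did not pass (137 to 186 CPM in AEL, 190 to 219 CPM in NC, adjusted p = 0.0953).

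**Figure D2:**
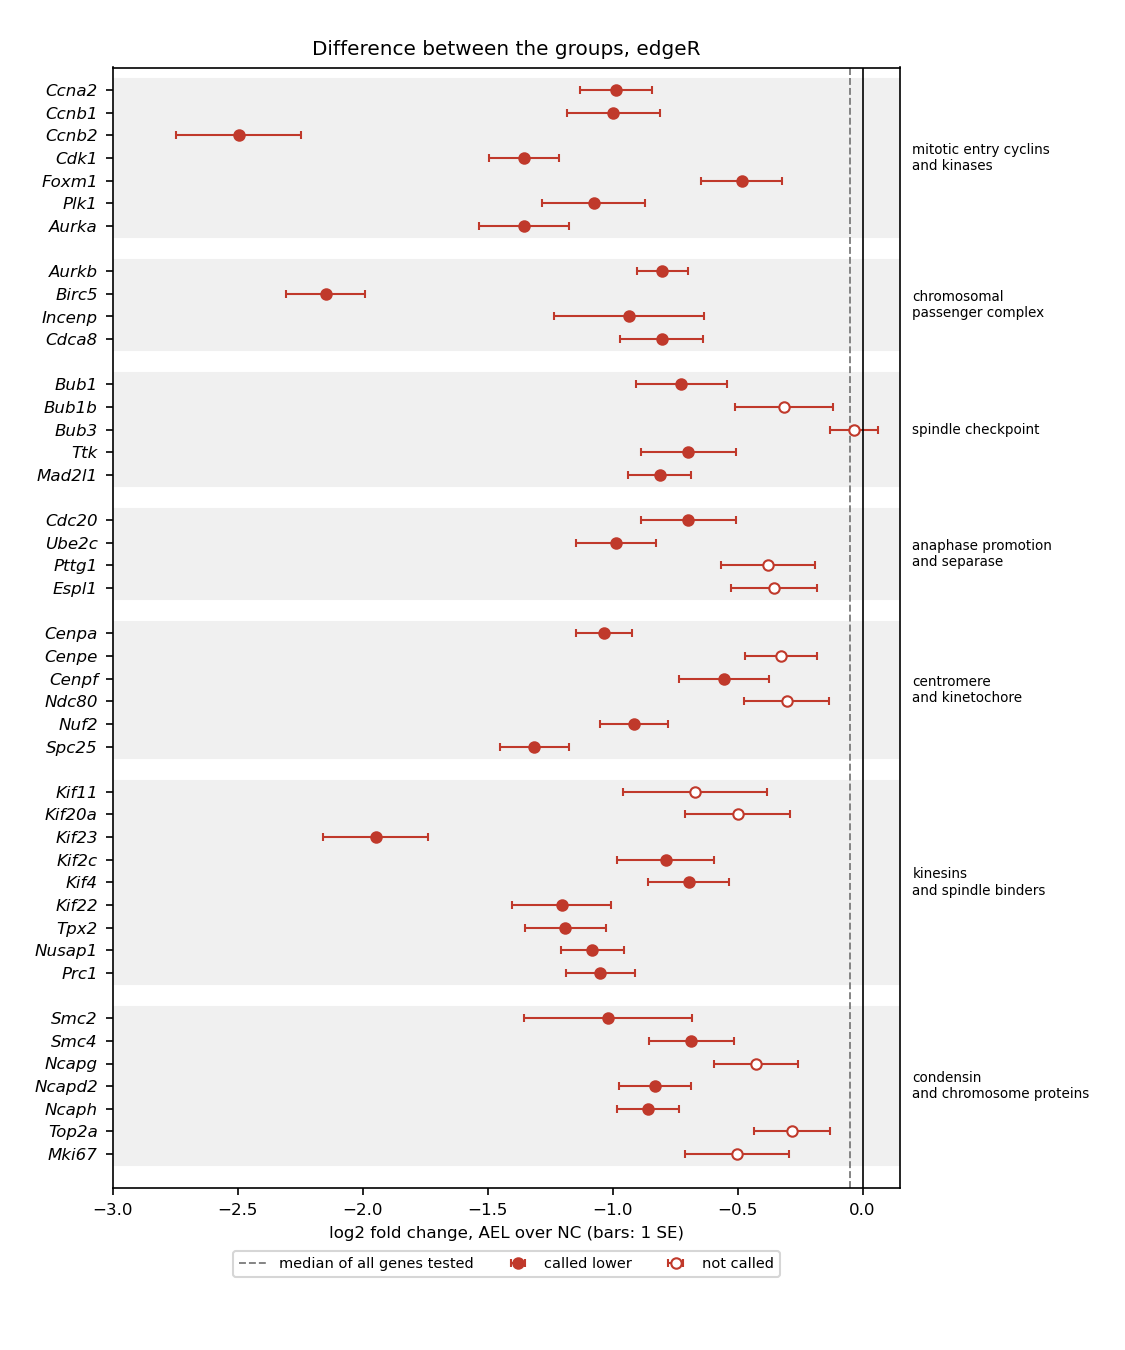
Log2 fold change of AEL over NC for each mitotic gene, with bars of 1 SE, grouped by function; filled points passed edgeR's test and open points did not, and the dashed line is the median of all genes tested (-0.05). Ccnb2, Birc5 and Kif23 lie furthest to the left, and the 11 open points all lie to the right of -0.70.

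Of the 9 kinesins and spindle-binding proteins 7 fell, against 29.0% of all genes tested. For all 9 every AEL library lay below every NC library, against 36.1% of all genes tested. Kif23, the motor of the centralspindlin complex at the spindle midzone (chromosome 9, 61917277 to 61946810), stood at 41.0, 49.6 and 28.8 CPM in AEL and 151, 144 and 166 CPM in NC. The fall was 3.86-fold (log2 fold change -1.95, SE 0.21, adjusted p = 0.000703). Kif20a, another midzone motor, stood at 63.1, 37.3 and 56.8 CPM in AEL and 67.0, 74.7 and 80.6 CPM in NC and did not pass (log2 fold change -0.50, SE 0.21, adjusted p = 0.0851). Prc1, which bundles the midzone microtubules, fell by 1.05 (SE 0.14). Kif22, a chromosome-arm motor, fell by 1.20 (SE 0.20), Kif4, a chromokinesin that also acts at the midzone, fell by 0.70 (SE 0.16), and Kif2c, a microtubule depolymerase, fell by 0.79 (SE 0.19). Kif2c did not pass without NC replicate 3 (adjusted p = 0.054). The spindle assembly factor Tpx2 stood at 185, 123 and 157 CPM in AEL and 365, 335 and 360.1 CPM in NC, a fall of 2.28-fold, and Nusap1, another microtubule-binding protein, fell 2.12-fold. Kif11, the motor Eg5 that separates the spindle poles, stood at 342, 295 and 148 CPM in AEL and 413, 398 and 438 CPM in NC. The lowest value was that of AEL replicate 3, and the difference did not pass with all libraries (log2 fold change -0.67, SE 0.29, adjusted p = 0.0908). It passed without that library at a smaller size (-0.34, adjusted p = 0.0414). Kif11 also passed by DESeq2 (adjusted p = 0.043), by limma voom with a weight for each group (adjusted p = 0.0164) and without AEL replicate 1 (adjusted p = 0.0464).

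Among the 5 condensin subunits 4 fell, and 2 without NC replicate 3. Ncapd2, a condensin I subunit, stood at 548, 437 and 413 CPM in AEL and 828, 767 and 889 CPM in NC, a fall of 1.78-fold (adjusted p = 0.0036). Ncaph, the subunit that closes the condensin ring, stood at 117, 98.5 and 124 CPM in AEL and 218, 193 and 204 CPM in NC, a fall of 1.81-fold (adjusted p = 0.00184). Smc4, one of the paired ATPases shared by both condensins, fell by 0.68 on the log2 scale (SE 0.17), and its call ended without NC replicate 3 (adjusted p = 0.0539). Smc2, its partner, stood at 386, 278 and 140.3 CPM in AEL and 552, 509 and 567 CPM in NC. AEL replicate 3 was far below the other AEL libraries, and the call (log2 fold change -1.02, SE 0.34, adjusted p = 0.0393) ended without AEL replicate 2 or any single NC replicate and with library totals alone. Ncapg, another condensin I subunit, did not pass (log2 fold change -0.42, SE 0.17, adjusted p = 0.0713).

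Mki67 and Top2a, widely used as proliferation markers, were not called. Mki67, which encodes Ki-67, the protein that coats mitotic chromosomes, stood at 1658, 1372 and 993 CPM in AEL and 1828, 1708 and 2163 CPM in NC. The difference (log2 fold change -0.50, SE 0.21, adjusted p = 0.0823) did not pass, although every AEL library lay below every NC library. It passed by DESeq2 (adjusted p = 0.0378), by limma voom with a weight for each group (adjusted p = 0.0425) and without AEL replicate 1 (adjusted p = 0.036). Top2a, topoisomerase II alpha, stood at 917, 780.2 and 643 CPM in AEL and 953, 904 and 987 CPM in NC, with AEL replicate 1 inside the NC range. Its log2 fold change was -0.28 (SE 0.15, adjusted p = 0.161), and 0.02 with quantile normalization.

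Ratios between genes whose products work together were set side by side in each library. The ratio of 2 genes in a library does not depend on the scaling between libraries, and it carries the lengths of both genes, so only its difference between groups is read. The 14 pairs were chosen after the values were seen, and an exact two-sided permutation test of 3 libraries against 3 cannot give a p below 0.10, so they are described with no test. The ratio of Ccnb2 to Ccnb1 was 2.50, 2.44 and 2.49 in NC and 0.541, 1.60 and 0.736 in AEL replicates 1 to 3. The ratio of Birc5 to Aurkb was 2.32, 1.99 and 1.99 in NC and 0.913, 0.850 and 0.709 in AEL. The ratio of Spc25 to Ndc80 was 1.27, 1.41 and 1.23 in NC and 0.799, 0.563 and 0.602 in AEL. The NC libraries were close together in each of these pairs, and the AEL libraries lay below all of them. The ratio of Bub3 to Bub1 went the other way, with 1.79, 1.96 and 1.74 in NC and 2.54, 3.65 and 2.90 in AEL. The share of other gene pairs whose groups do not overlap was not computed, so nothing is read from how many of the 14 did not. The ratio of Spc25 to Spc24, its partner in the NDC80 complex, did overlap (0.675 to 0.885 in NC and 0.525 to 0.950 in AEL), as did that of Smc2 to Smc4.

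**Figure D3:**
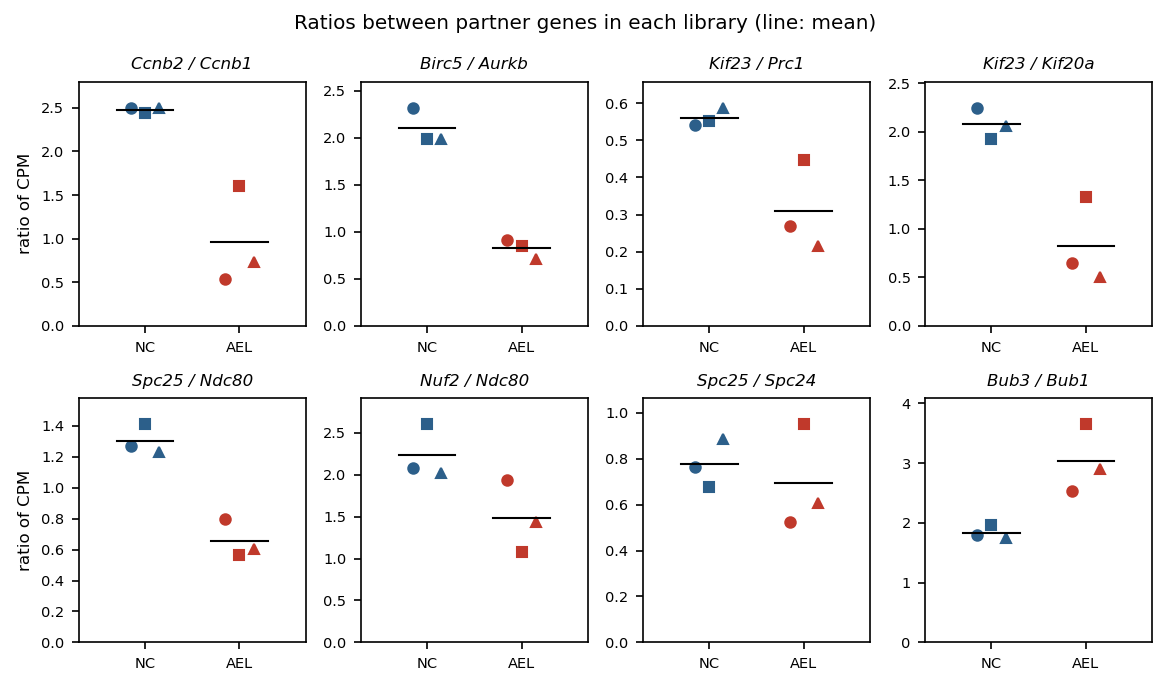
Ratio of the CPM of 2 partner genes in each library (symbol shape is the replicate number, the line is the group mean, and each axis starts at 0). For Ccnb2 over Ccnb1 the NC libraries sit between 2.44 and 2.50 and the AEL libraries between 0.541 and 1.60. Spc25 over Spc24 overlaps between the groups. The ratios are not adjusted for chromosome medians.

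The members were not low to the same degree in each AEL library. Against the mean of NC, the median log2 difference of the 42 members was -0.58 in AEL replicate 1, -1.01 in replicate 2 and -0.96 in replicate 3, while the median over the 8933 genes averaging 10 CPM or above was 0.03, 0.03 and 0.00. AEL replicate 2 was the lowest of the AEL libraries for 23 members, replicate 3 for 17 and replicate 1 for 2. Replicate 2 was lowest for 6 of the 9 kinesins and spindle binders, and replicate 3 for 5 of the 7 condensin and chromosome proteins. The median coefficient of variation of a member was 20.7% within AEL and 5.82% within NC, and it was larger in AEL for 40 members. A wider spread in AEL was not particular to the members. Over all genes tested the biological coefficient of variation was 44.3% in AEL and 9.02% in NC. The share of all genes with the larger spread in AEL is not given here, nor is the split of all genes by lowest AEL library.

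Part of this unevenness went along with the chromosome a member lies on. In AEL replicates 1 and 3 the 457 other genes of chromosome 9 had a median log2 difference from NC of -0.68 and -0.73, against 0.02 in replicate 2. The 3 members on chromosome 9 were least reduced in replicate 2: Ccnb2 was at -2.85, -1.99 and -2.79 in replicates 1 to 3, Kif23 at -1.90, -1.62 and -2.40, and Ttk at -0.85, -0.36 and -0.94. The 320 other genes of chromosome 19 had a median of -0.89 in replicate 3, against 0.05 and -0.04 in replicates 1 and 2. Both members there were lowest in replicate 3, with Incenp at -1.68 and Kif11 at -1.48, against -0.40 and -0.28 in replicate 1. Smc2, on chromosome 4, was also lowest in replicate 3 at -1.95, where the other genes of chromosome 4 had a median of 0.14. On chromosome 3, whose other genes had a median of 0.59 in replicate 2, Ccna2 and Smc4 were least reduced in that replicate, at -0.81 and -0.47, while Cenpe was most reduced there, at -0.54. Chromosome 14, which holds no member, had a median of -0.02 in replicate 1 and of -0.69 and -0.72 in replicates 2 and 3.

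With each library's chromosome median taken out in the same edgeR model, an alternative added after the data were seen, 35 members were called lower and 0 higher. Ccnb2 and Kif23 were smaller but still called, at -2.08 (adjusted p = 6.64e-05) and -1.50 (adjusted p = 0.00051), and Ttk was no longer called (-0.25, adjusted p = 0.135). Kif11 was then called at -0.46 (adjusted p = 0.01), as were Kif20a, Cenpe, Espl1 and Ncapg. The log2 difference in the ratio of Ccnb2 to Ccnb1 moved from -1.52 to -0.84, and that of Birc5 to Aurkb, both on chromosome 11, was -1.35 either way. The ratio of Kif23 to Kif20a moved from -1.45 to -0.70, that of Kif23 to Racgap1 from -0.95 to -0.39 and that of Kif22 to Kif4 from -0.52 to -0.35. For Spc25 to Spc24, whose groups overlapped, the difference grew from -0.20 to -0.71. Why chromosomes 3, 9, 14 and 19 differ between the libraries was not tested.

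**Figure D4:**
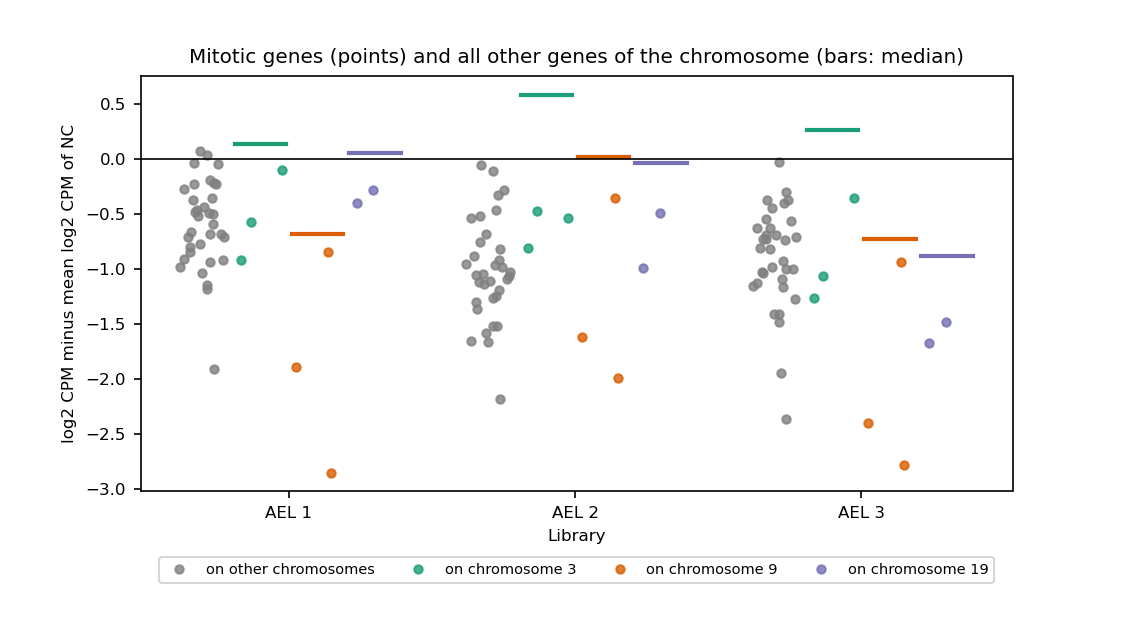
Log2 CPM of each mitotic gene in each AEL library minus its mean log2 CPM in NC (points), with the median of all other genes of chromosomes 3, 9 and 19 as bars. The chromosome 9 bar is near 0 in AEL replicate 2 and at -0.68 and -0.73 in replicates 1 and 3, and the chromosome 19 bar falls to -0.89 in replicate 3 only.

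The other genes of the pathway were read from 6 lists set by function. Of 146 tested 73 fell and 8 rose, with a median log2 fold change of -0.56; over all genes tested 29.0% were called lower and 23.9% higher, the background for each list below. The number that rose was 19 with library totals alone, 17 without AEL replicate 2, 13 without AEL replicate 3 and 4 to 6 without any single NC replicate. Differences between the lists were not tested. Of 39 other checkpoint and kinetochore genes 25 fell and 0 rose (median -0.73; 1 rose without AEL replicate 2). Those that fell include Cenph and Cenpm, subunits of the constitutive centromere network, at 3.64-fold and 3.91-fold lower, and Cenpl at 3.04-fold lower. Of 24 other entry and exit kinases and phosphatases 14 fell and 1 rose (median -0.71); 2, 3 and 2 rose without AEL replicates 1, 2 and 3, and 0 without NC replicate 2. Pbk, a mitotic kinase, fell from 153 to 165 CPM in NC to 20.1 to 53.9 CPM in AEL, Cdkn3, a phosphatase that acts on Cdk1, fell by 2.00 on the log2 scale (SE 0.365), and Arpp19, an inhibitor of the phosphatase PP2A-B55, fell by 1.45 (SE 0.17).

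Of 38 other spindle, kinesin and cytokinesis genes 19 fell and 1 rose (median -0.63); 3, 4 and 4 rose without AEL replicates 1, 2 and 3. Psrc1, a microtubule-binding spindle protein, had the largest fall named here, with 6.08, 7.71 and 4.03 CPM in AEL and 63.2, 59.2 and 52.8 CPM in NC (9.84-fold, adjusted p = 0.000293). Cdca3, a cofactor in the destruction of the mitotic inhibitor Wee1, fell 3.25-fold and Fam83d, a spindle protein, 3.60-fold. Of 17 genes of the anaphase-promoting complex and its inhibitors 6 fell and 2 rose (median -0.31), a share lower near that of all genes. With library totals alone, without NC replicate 1 or without NC replicate 3 only 3 fell, and without NC replicate 1 or 2 only 1 rose. Ube2s, which extends ubiquitin chains on targets of the complex, fell from 59.9 to 75.6 CPM in NC to 15.9 to 21.6 CPM in AEL, a change of 3.53-fold, and Fbxo5, the inhibitor Emi1, fell 2.13-fold. Anapc13, a small core subunit on chromosome 9, fell by 1.60 (SE 0.44), a result that was lost on leaving out any 1 NC replicate (adjusted p = 0.0611 to 0.0774) or without AEL replicate 1 or 3.

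Of 12 centriole duplication genes 3 fell and 1 rose (median -0.11, against -0.05 over all genes), and 1 fell and 0 rose without NC replicate 1 or without NC replicate 3. With AEL replicate 2 left out 2 rose, and with NC replicate 2 left out 0 rose. Plk4, the kinase that starts duplication, fell by 0.72 (SE 0.13), Sass6, of the centriole cartwheel, by 0.70 (SE 0.18) and Cntrob by 0.90 (SE 0.25). The Sass6 call ended without NC replicate 1 or 3, and the Cntrob call without any single NC replicate. Of 16 condensin II and cohesin genes 6 fell and 3 rose (median -0.24); 3 fell without NC replicate 3, and 5 rose without AEL replicate 2. Ncapg2, a condensin II subunit, stood at 166, 148 and 128 CPM in AEL and 410.5, 399 and 465 CPM in NC, a fall of 2.88-fold (adjusted p = 0.000376). Cdca5, which encodes sororin, the protector of cohesin, fell 2.51-fold, and Esco2, a cohesin acetyltransferase, fell 2.66-fold, a call that ended without AEL replicate 2 or any single NC replicate. With chromosome medians taken out the log2 fold change of Cdca5 went from -1.33 to -1.08 and that of Esco2 from -1.41 to -1.05. That of Ncapg2 went the other way, from -1.53 to -1.73. The 3 that rose, named after their values were seen, were the cohesin loaders Nipbl, at 217 to 281 CPM in AEL and 127 to 157 CPM in NC, and Mau2, at 163 to 172 CPM in AEL and 101 to 116 CPM in NC, and the cohesin regulator Pds5a. Pds5a did not pass without any single NC replicate (adjusted p = 0.0515 to 0.0673).

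For comparison, 41 genes of replication licensing and the replication fork, which act in S phase, had 30 called lower and 3 higher and a median log2 fold change of -1.20, against 29.0% and 23.9% of all genes. Leaving out any 1 NC replicate left 0 called higher. Ccne1 and Ccne2, the cyclins that open S phase, fell 4.73-fold each, and Gins1, a helicase subunit, fell 4.84-fold. The difference between this list and the mitotic members was not tested.

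**Figure D5:**
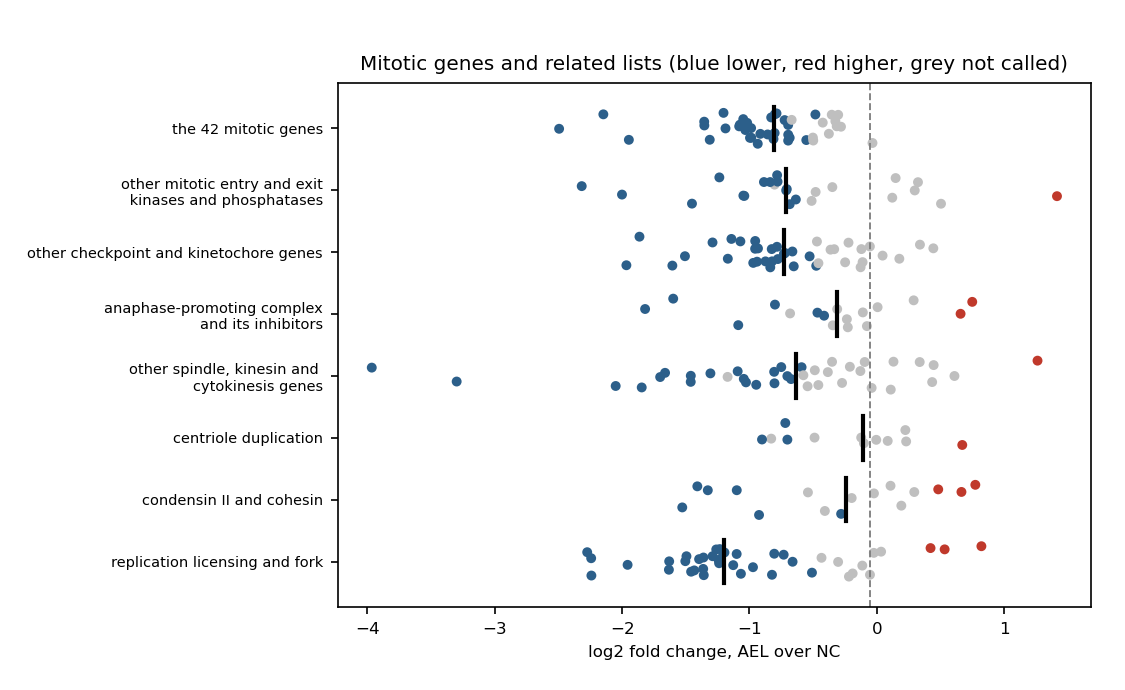
Log2 fold change of AEL over NC for each gene of the 42 mitotic genes, the 6 lists of other mitotic genes and the replication list; blue points were called lower, red points higher and grey points neither, the black bar is each list's median and the dashed line the median of all genes tested. The medians run from -0.11 for centriole duplication to -1.20 for replication, and the 42 mitotic genes hold no red point.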

How the data were processed

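Poly-A RNA of 3 AEL and 3 NC libraries was compared. The deposited table is named as CPM, but its values are whole-number counts per gene with a different total in each library, so they were treated as counts made by the authors. The submitters' processing notes name edgeR 3.32.1 and mm10, with no role; no aligner, counter or use of strand is given in the sources used here, so reads shared with near-identical or overlapping genes could not be told apart. Groups and replicate numbers came from the sample titles.

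Counts were tested with edgeR 4.0.16 (R 4.3.3): TMM scaling, a minimum of 1 CPM in 3 or more libraries, quasi-likelihood test, Benjamini-Hochberg adjustment over 12427 genes, threshold 0.05. SEs were derived from the log2 fold change and the F statistic. Alternatives used limma 3.58.1 (log2 of CPM plus 1 or 5), DESeq2 1.42.0 (adjusted p NA for 26 genes, left as NA), other scalings, no filter, a replicate block and each library left out. The fit was tested on simulated data. Chromosome medians used other genes averaging 10 CPM or above. Promoters are RefSeq windows of GRCm38.p6, the assembly also called mm10; Ccna2, Aurkb, Foxm1, Kif20a, Smc4, Incenp and Tpx2 had no entry. Besides the 42 members, the 3 genes with the largest change past the threshold were named from each list, where groups did not overlap and the higher group had a mean of 10 CPM or more. Members and lists were chosen with earlier results of these data known.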

Additional observations from a re-analysis of the deposited data

How the results depend on the processing

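Of the 31 members called lower, 22 were called lower under all 16 alternatives, and 0 members were called higher under any. The count lower was 25 with library totals alone, 33 by DESeq2, 33 by limma voom with a weight for each group, 35 with chromosome medians taken out, and 22 to 34 with 1 library left out (22 without NC replicate 3). The log2 fold change of Bub3 (-0.03) was 0.15 with library totals alone, 0.034 with chromosome medians taken out, and -0.087 to 0.071 with 1 library left out (above 0 without any single AEL replicate); that of Top2a (-0.28) was 0.016 with quantile normalization; and that of Lin37 (0.12) ran from -0.026 (without NC replicate 3) to 0.25 with 1 library left out. The number of other mitotic genes called higher (8) was 19 with library totals alone and 4 to 17 with 1 library left out. Library totals and quantile normalization moved the median of all genes from -0.05 to 0.14 and 0.11. The cause of these changes was not tested. Over all genes 6563 were called, and 3484 to 3588 without any single NC replicate, where 2 NC libraries remain. With the replicate number as a block 30 members were called lower and 5479 genes in all. Deviations of same-numbered AEL and NC libraries correlated at 0.08, -0.02 and -0.03 across genes, and not every library correlated best with its own number. Whether same-numbered samples shared more than a number cannot be told from such small values. With 3 libraries a group, a difference such as that of Kif11, led by 1 library and called under 5 of the 16 other settings, is poorly resolved.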

Other observations

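MuvB and its partner B-Myb bind the promoters of G2 and M genes. Genes of the MuvB core (Lin9, Lin37, Lin52 and Lin54) and the gene of B-Myb were in the list of other entry and exit genes. They are named here after their values were seen. Mybl2, which encodes B-Myb, stood at 107, 88.3 and 110 CPM in AEL replicates 1 to 3 and 202, 204 and 222 CPM in NC; it fell by 1.04 on the log2 scale (edgeR, adjusted p = 0.000952). Lin52, a core subunit, was low in both groups, with 14.3 to 15.4 CPM in AEL and 24.5 to 36.3 CPM in NC, and fell by 1.05 on the log2 scale (adjusted p = 0.0058). Lin9 (log2 fold change -0.48, adjusted p = 0.0677), Lin37 (0.12, adjusted p = 0.622) and Lin54 (0.32, adjusted p = 0.0532) did not pass. Lin9 passed by limma voom with a weight for each group (-0.50, adjusted p = 0.0477) and with chromosome medians taken out (-0.57, adjusted p = 0.0231). Lin54 passed with library totals alone (0.51, adjusted p = 0.00926), by DESeq2 (adjusted p = 0.0369) and by limma on log2 of CPM plus 1 (adjusted p = 0.048). It also passed without any single AEL replicate (adjusted p = 0.0277 to 0.0448). The level of RNA does not show the binding of these factors, which was not measured here.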
